A study of Homo sapiens with 4 samples.

Results

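The imprinted DLK1-DIO3 miRNA cluster at 14q32 was examined in miRNA sequencing (miR-seq) data of U-251 cells, an established human glioma cell line. Members were the table names whose number, once species prefix, letter, copy digit and arm were removed, belongs to 1 of 45 miRNA numbers encoded in the cluster, and 43 of the 746 names met this rule. The 4 libraries were biological replicates of control cells that had not been irradiated and formed 1 group, so no comparison between conditions was possible. The labels give DMSO as vehicle, whereas the study's text describes basal conditions. The labels also describe capture of polyadenylated mRNA, whereas the study's methods name a miRNA library kit. The values were estimated read counts per miRNA name, and each was expressed as a percentage of all counts of its library.

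The DLK1-DIO3 domain is one of the imprinted regions of the genome. The protein-coding genes DLK1, RTL1 and DIO3 are read from the paternal chromosome, while the long non-coding RNAs MEG3, MEG8 and MEG9 and the miRNAs of the cluster are read from the maternal one. The miRNAs lie in long precursor transcripts, from which hairpins are cut, and each hairpin can release a mature miRNA from its 5p arm and another from its 3p arm. Bases 2 to 8 of the mature miRNA, the seed, pair with target mRNAs. The cluster is best known from brain, placenta and embryonic tissue, and in neurons the stretch that starts at miR-379 responds to electrical activity.

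The sequences below come from RefSeq on GRCh38.p14, the build the study calls hg38, and all 43 member names matched an entry. Capitals mark the seed. The first set holds both arms of the 4 members with the highest summed counts, because those members carry most of the counts of the cluster. None of their seeds recurred among the other members' matures.

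miR-382-5p: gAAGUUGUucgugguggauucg
miR-382-3p: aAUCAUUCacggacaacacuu
miR-127-5p: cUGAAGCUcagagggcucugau
miR-127-3p: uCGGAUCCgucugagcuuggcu
miR-409-5p: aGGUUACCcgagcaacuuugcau
miR-409-3p: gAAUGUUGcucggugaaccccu
miR-432-5p: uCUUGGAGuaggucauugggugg
miR-432-3p: cUGGAUGGcuccuccaugucu

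On chromosome 14, all on the plus strand, miR-127-5p lies at chr14:100883001-100883022 and miR-432-5p at chr14:100884496-100884518. Both are in an intron of the long non-coding gene MIR493HG and opposite an exon of RTL1. miR-382-5p lies at chr14:101054316-101054337 in an exon of MEG9, and miR-409-5p at chr14:101065314-101065336 in an intron of MEG9.

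The second set holds some of the members with a shared seed or a close sequence. Counts could be split or shared between names where sequences are close, which a shared seed alone does not make them. miR-323b-5p, miR-410-5p and miR-494-5p had the seed GGUUGUC, miR-376b-5p and miR-376c-5p had GUGGAUA, and miR-487a-5p and miR-487b-5p had UGGUUAU. On the 3p arms, miR-379-3p and miR-411-3p shared AUGUAAC, and miR-376a-3p and miR-376b-3p shared UCAUAGA. Further shared 3p seeds, not printed in full, were AUCAUAC in miR-154-3p and miR-487a-3p, UCAUACA in miR-485-3p and miR-539-3p, and UAUACAG in the 3p matures of both miR-1185 hairpins.

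miR-323b-5p: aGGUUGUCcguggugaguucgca
miR-410-5p: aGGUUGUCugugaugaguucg
miR-494-5p: aGGUUGUCcguguugucuucucu
miR-376a-5p: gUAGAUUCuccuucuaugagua
miR-376a-2-5p: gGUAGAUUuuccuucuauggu
miR-376b-5p: cGUGGAUAuuccuucuauguuu
miR-376c-5p: gGUGGAUAuuccuucuauguu
miR-376a-3p: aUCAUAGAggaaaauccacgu
miR-487a-5p: gUGGUUAUcccugcuguguucg
miR-487b-5p: gUGGUUAUcccuguccuguucg
miR-379-5p: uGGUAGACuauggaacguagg
miR-411-5p: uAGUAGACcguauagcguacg

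The cluster spans 214.4 kb from miR-770 to miR-656. It falls into a stretch of 9 member names beside MEG3 and RTL1 and a stretch of 34 names from miR-379 to miR-656, which takes up 44.7 kb and begins 110.9 kb after miR-370. In RefSeq, 52 hairpin genes lie between the ends, and 45 of them belonged to a name in the table. Of the 45 numbers of the rule, 7 had no name in the table, namely miR-431, miR-1197, miR-758, miR-300, miR-544, miR-496 and miR-541. In the GENCODE annotation, 11 hairpins from miR-379 onwards lay in an intron of MEG8, 15 in an intron of MEG9 and 4 in an exon of MEG9, while the miR-376 group and miR-654 lay in none of the listed genes.

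Most members were present in these cells. A value in at least 1 library was found for 40 of the 43 names, against 83.2% of all 746 names. A value in every library was found for 34 names, against 41.4% of all names, and at least 10 counts in every library for 33, which is 76.7% against 37.5%. miR-136-5p, miR-655-5p and miR-770-5p were blank in all 4 libraries. Blanks were read as 0 counts. Counting error alone would then allow up to 3 counts or 2.43e-05% of the smallest library. Other blanks of the table did not keep to that limit. miR-24-1-5p, not a member, was blank in replicate 1 and had 104745, 98131 and 97326 counts in replicates 2 to 4. The limit therefore does not bound the level of a blank member.

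Of the other names, 6 had a value in some libraries only. miR-134-5p, known for limiting the growth of dendritic spines in neurons, held 18453 counts in replicate 3 and was blank in the other 3 libraries. Its share of replicate 3 was 0.149% (95% Wilson interval 0.147 to 0.151%). Of all 746 names, 12 had at least 1000 counts in 1 library and a blank in another, so a blank did not always mark a low level, and the summed share of the cluster, its concentration in few members and its ratios are given with and without miR-134-5p. miR-411-5p held 400 and 332 counts in replicates 1 and 2 and was blank in the others. miR-495-5p held 173 counts in replicate 2 only. The remaining 3, miR-433-5p, miR-668-5p and miR-656-5p, held at most 66 counts in any library.

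The cluster made up 1.01, 1.45, 1.78 and 1.40% of the counts of replicates 1 to 4, and its mean share was 1.41% ± 0.318 (SD, n = 4). Replicate 1 was the lowest and replicate 3 the highest library. Without miR-134-5p, replicate 3 fell to 1.63%, still the highest, and the mean was 1.37% ± 0.264. Total counts were alike, between 12363104 and 13214969 per library.

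**Figure D1:**
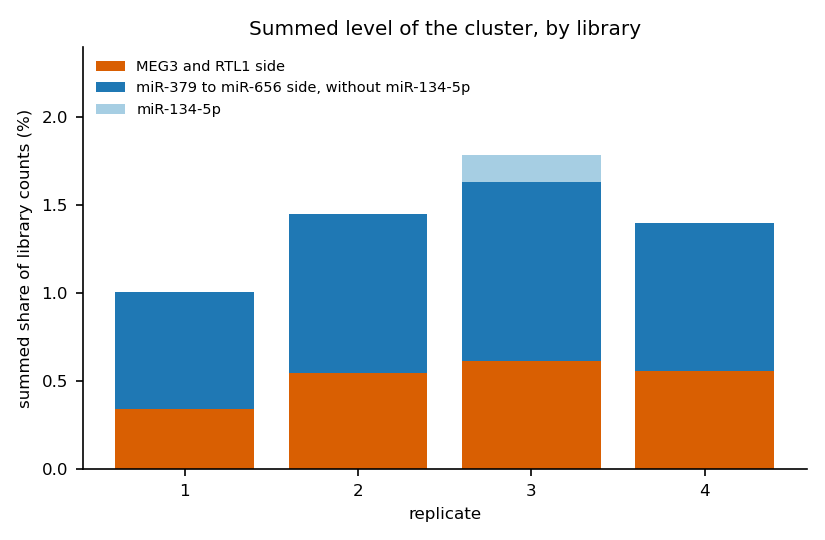
Summed share of library counts (%) of the cluster in each of the 4 replicates, stacked by stretch, with miR-134-5p shown apart. The total ran from 1.01% in replicate 1 to 1.78% in replicate 3, and miR-134-5p added to replicate 3 only.

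Counts were concentrated in few members. miR-382-5p, miR-127-5p, miR-409-5p and miR-432-5p together held 64.8% ± 3.95 (SD, n = 4) of the counts of the cluster, and the 10 highest members, miR-134-5p among them, held 87.6% ± 1.44. With miR-134-5p left out of the cluster, the 4 held 66.2% ± 3.57 and the 10 highest members 89.1% ± 1.47. Among all 746 names these 4 ranked 37, 38, 40 and 50. From miR-382-5p to miR-380-5p, the lowest member with at least 10 counts in every library, the mean share dropped from 0.276% to 0.000334%.

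**Figure D2:**
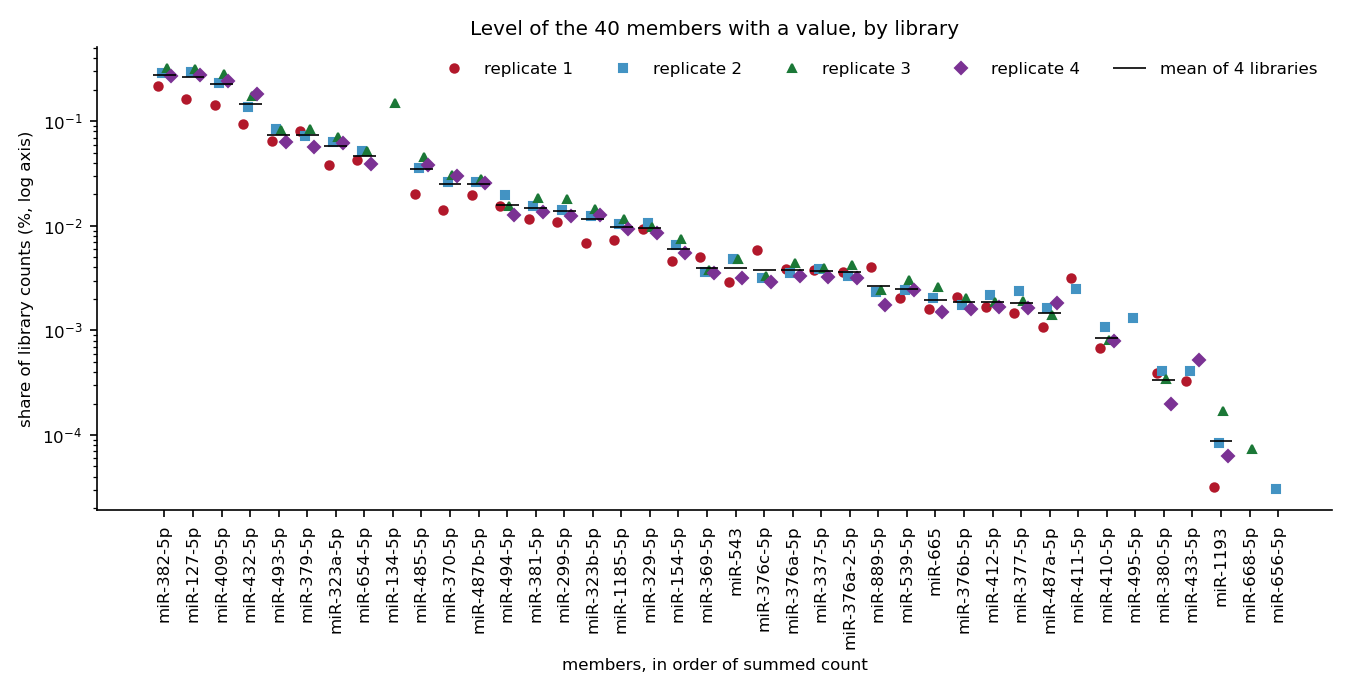
Share of library counts (%, log axis) of the 40 members with a value, in order of summed count, with 1 symbol per library and a line at the mean of members with a value in all 4 libraries. Shares ran from 0.276% for miR-382-5p downwards, and miR-134-5p has a symbol for replicate 3 only.

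On the MEG3 and RTL1 side, the members opposite RTL1 led. These miRNAs are complementary to the RTL1 transcript and are known to direct its cleavage. miR-127-5p had 20601, 38918, 39324 and 35305 counts in replicates 1 to 4, a mean share of 0.263% ± 0.0682 (SD, n = 4). miR-432-5p had 11817, 18100, 21717 and 23326 counts, or 0.147% ± 0.0408. In both, replicate 1 was lower than each of the other 3 libraries. The other 2 named members opposite RTL1 were lower or blank. miR-433-5p had 41, 54 and 66 counts in replicates 1, 2 and 4 and a blank in replicate 3, and miR-136-5p was blank throughout.

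The members in introns of MIR493HG outside RTL1 were lower than that leading pair. miR-493-5p had 8045, 11082, 10251 and 8105 counts, or 0.0736% ± 0.0113. miR-370-5p, which lies at the far end of this side in introns of MIR493HG and MEG8, had 1764, 3492, 3825 and 3817 counts, with replicate 1 again the lowest. miR-337-5p and miR-665 lay 501 bases apart and had 410 to 508 and 192 to 325 counts.

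The miR-379 to miR-656 side began with members in the intron of MEG8. miR-379-5p had 10031, 9594, 10405 and 7247 counts, or 0.0734% ± 0.0120 (SD, n = 4), and was lowest in replicate 4. miR-323a-5p had 4785, 8356, 8660 and 7826 counts, or 0.0582% ± 0.0139. miR-299-5p followed with 1378, 1892, 2253 and 1596 counts.

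miR-494-5p had 1957, 2601, 1926 and 1614 counts. miR-329-5p, named for 2 hairpins with 1 mature sequence, had 1179, 1402, 1219 and 1095 counts and varied least among the 33 members, with a coefficient of variation of 8.80%. miR-329 is known, with miR-134 and miR-381, for its part in dendrite growth of active neurons. miR-543 had 362, 638, 596 and 404 counts. miR-1193 had 4, 11, 21 and 8 counts, the single member with a value in every library that stayed under 10 counts in some.

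In the group without a listed host gene, miR-654-5p stood above its neighbours in every library, with 5341, 6898, 6440 and 4998 counts or 0.0465% ± 0.00664 (SD, n = 4). The 4 names of the miR-376 group around it held between 205 and 736 counts. miR-376b-5p and miR-376c-5p share a seed and differ at 1 position once aligned, and miR-376c-5p was 1.62 to 2.83 times as high. Hairpins of the miR-376 group are known substrates of A-to-I RNA editing in brain, which can change the seed. miR-376a-5p and miR-376a-2-5p, which differ at 3 positions once aligned and come from 2 hairpins with the same 3p mature, had counts within 1.08-fold of each other in every library.

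Near-equal counts of that kind were found elsewhere in the table. It holds 8 pairs of 5p names whose hairpins have different 5p matures and 1 and the same 3p mature. In 6 of these pairs, the miR-376a pair included, the counts lay within 1.1-fold in every library in which both had a value. Of the member names, 40 carry the 5p arm, 0 the 3p arm and 3 no arm, although 38 have a 3p mature in RefSeq, and the table holds 18 names of the 3p arm in all. A member's count therefore cannot be assigned to 1 arm of its hairpin from the table, and levels are given by name as deposited.

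Relatives of the miR-487 and miR-323 groups, whose matures differ on both arms, differed in level in every library. miR-487b-5p was 14.2 to 20.2 times as high as miR-487a-5p, which differs at 3 positions on each arm. miR-323a-5p was 4.80 to 5.52 times as high as miR-323b-5p. miR-379-5p was 25.1 and 28.9 times as high as miR-411-5p in replicates 1 and 2, where both had a value, and their 3p matures differ at 2 positions. miR-487a-5p had 134, 219, 172 and 231 counts. Among the 3 members with the seed GGUUGUC, miR-494-5p summed to 8098 counts, miR-323b-5p to 5919 and miR-410-5p to 431, the last with 86 to 142 counts per library.

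In and around MEG9 lay the highest member and several of intermediate level. miR-382-5p had 27068, 38474, 39956 and 34859 counts, or 0.276% ± 0.0450 (SD, n = 4). miR-485-5p had 2542, 4709, 5655 and 4888 counts, and miR-487b-5p had 2483, 3487, 3480 and 3281. In these 3 members replicate 1 was the lowest library.

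Other members of this stretch showed the same low replicate 1. miR-381-5p had 1458, 2053, 2272 and 1733 counts. miR-323b-5p had 867, 1645, 1776 and 1631 counts. miR-1185-5p, from 2 hairpins, had 916.5, 1373, 1427 and 1196 estimated counts. Replicate 1 was also below the rest for miR-154-5p, with 581, 862, 934 and 702 counts. The lower members here were miR-539-5p with 257 to 374 counts and miR-377-5p with 185 to 313.

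At the far end, miR-409-5p had 18006, 30910, 35372 and 31207 counts, or 0.227% ± 0.0601 (SD, n = 4), again lowest in replicate 1. Its neighbours were far lower. miR-412-5p, whose mature bases begin 98 bases further on, was lower by 119.6-fold (geometric mean, 85.7 to 152 over the libraries). miR-369-5p was lower by 55.7-fold and miR-410-5p by 264-fold, and all 3 differences held in 4 of 4 libraries. miR-369-5p, with 632, 474, 473 and 452 counts, was highest in replicate 1.

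Among single-hairpin members with at least 10 counts in every library, 21 pairs lay within 1 kb of each other. Of these, 9 differed over 10-fold in the geometric mean, and the median was 2.99-fold. The pairs share members, and miR-654-5p was the higher one in 4 of the 9 and miR-409-5p in 3. miR-323a-5p was 177 times as high as miR-380-5p, 670 bases away, and miR-654-5p was 24.8 times as high as miR-376b-5p.

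**Figure D3:**
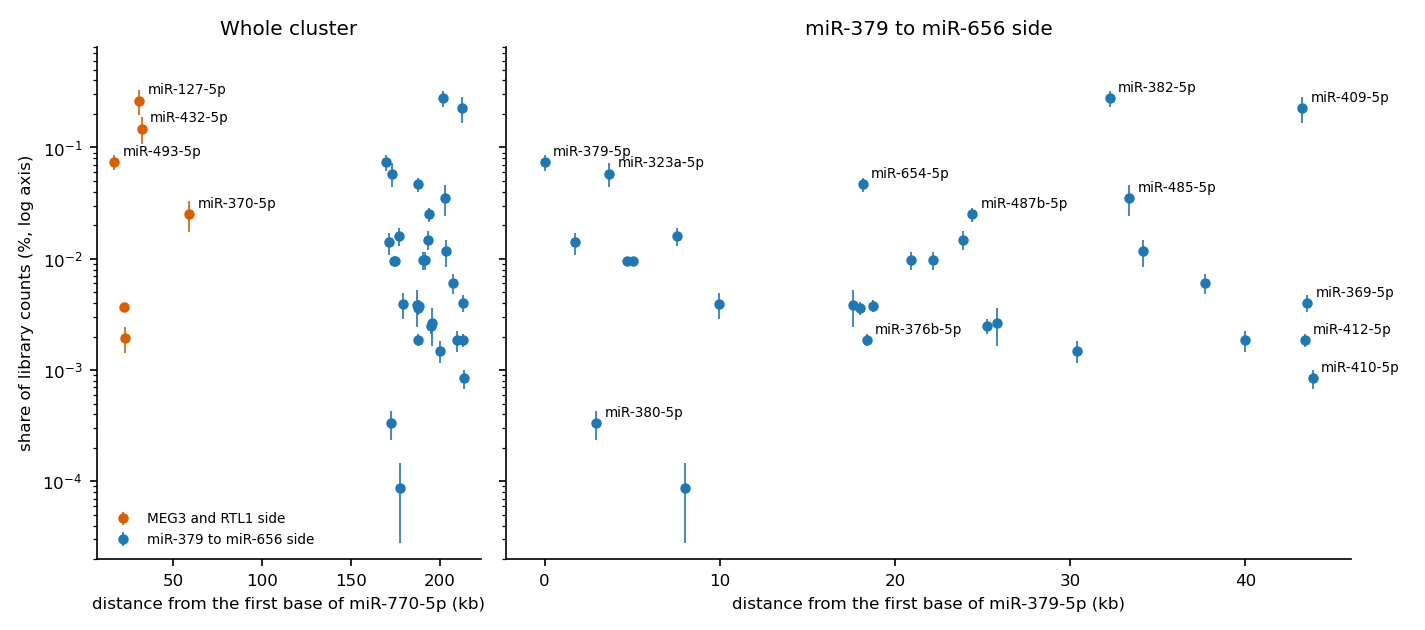
Mean share of library counts (%, log axis) ± SD over 4 libraries against distance along the chromosome in kb, for the whole cluster from miR-770-5p on the left and for the miR-379 to miR-656 side from miR-379-5p on the right. Points are hairpins of members with a value in every library, with miR-329-5p and miR-1185-5p drawn at both of their hairpins, and neighbours such as miR-409-5p and miR-412-5p sat 119.6-fold apart.

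Summed by side, the miR-379 to miR-656 names held 0.665, 0.901, 1.17 and 0.843% of the counts and the MEG3 and RTL1 names 0.342, 0.548, 0.614 and 0.559%. The first sum was higher in 4 of 4 libraries, by 1.74-fold, with a log2 ratio of 0.80 ± 0.174 (SD, n = 4; exact two-sided sign-flip permutation test, p = 0.13, the smallest p that 4 libraries allow). Without miR-134-5p the log2 ratio was 0.75. The first side has 34 names and the second 9, so the summed ratio is not a ratio per name.

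The order of single members was the same in all 4 libraries only in part. Of 32 pairs of neighbours in the order of summed counts, 11 kept the same direction in all 4 libraries and 21 did not. The lowest Benjamini-Hochberg adjusted p over the 32 pairs was 0.364 (exact two-sided sign-flip permutation tests). With 4 libraries these tests could not call any pair, even with the same direction in all 4. The pairs were ordered by the summed counts of the same libraries, which favours agreement. The 11 pairs are therefore a description and not an established order. miR-127-5p exceeded miR-409-5p, and miR-409-5p exceeded miR-432-5p, in 4 of 4 libraries. miR-382-5p and miR-127-5p changed order, with log2 ratios of 0.39, -0.02, 0.02 and -0.02, as did miR-493-5p and miR-379-5p. When the order was formed anew without replicate 1, 17 neighbouring pairs had the same direction in the remaining libraries. Those pairs are not all the same as before, and fewer libraries agree more easily.

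Replicate 1 had less of the cluster than the other libraries. For the 33 members with at least 10 counts in every library, the median log2 difference of replicate 1 from the mean of the other 3 was -0.37, while the median over all 280 such names was -0.05. Replicate 3 lay 0.31 above the rest over the members and 0.07 over all names. Replicate 1 was the lowest library for 18 members (54.5%, against 35.7% of all names) and the highest for 4 (12.1%, against 33.6%). Replicate 3 was the highest for 18 (54.5%, against 25.7%). Replicate 4 was the lowest for the other 15 (45.5%, against 38.6%), and neither replicate 2 nor replicate 3 was lowest for any of the 33, against 13.2% and 12.5% of all names.

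**Figure D4:**
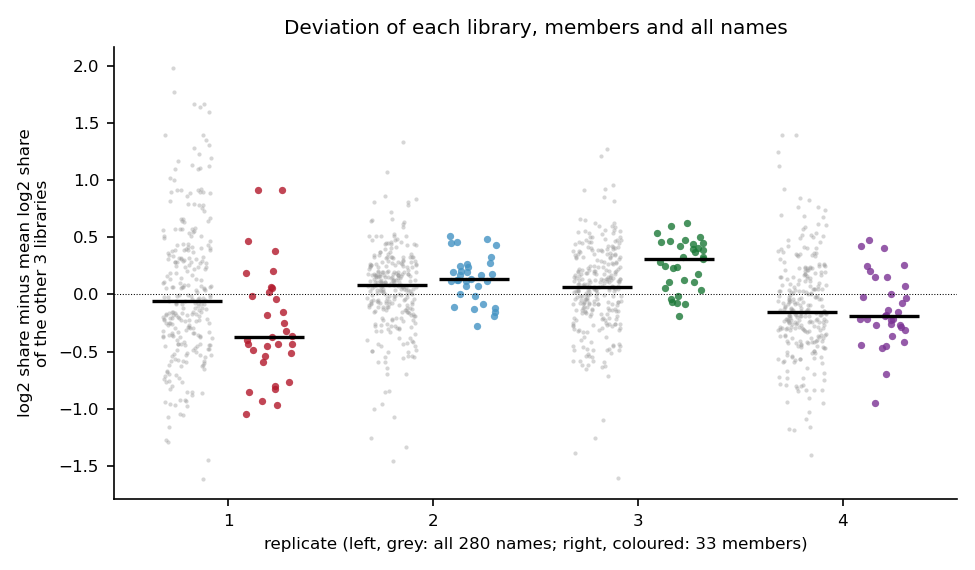
Log2 share in each replicate minus the mean log2 share of the other 3, for all 280 names with at least 10 counts in every library (grey, left) and the 33 members among them (coloured, right), with lines at the medians. In replicate 1 the members' median was -0.37 and that of all names -0.05.

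The members did not all follow. miR-370-5p and miR-485-5p had the lowest values in replicate 1, at -1.05 and -0.97 on the log2 scale. miR-376c-5p, miR-889-5p, miR-369-5p and miR-376b-5p were highest in replicate 1, with differences of 0.91, 0.92, 0.46 and 0.21. miR-376c-5p had 736, 418, 409 and 369 counts, and miR-889-5p had 507, 307, 299 and 223. By Dixon's ratio, miR-376c-5p was the single member of the 33 for which 1 library stood apart (3.03%, against 11.1% of all names). The median coefficient of variation was 19.5% over the members and 20.1% over all names, and 13.6% over the members without replicate 1.

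Base composition and level both moved with replicate 1. Across the 33 members, Pearson's r between the log2 difference of replicate 1 and the GC content of the named mature was -0.41 and Spearman's rho -0.51, and across 254 names with a sequence they were -0.46 and -0.44. The median GC content was 47.8% in both sets. With the GC content of the 3p mature in its place, r was -0.68 over 30 members, and with that of the hairpin -0.50 over 29. Against the log2 mean share of the 33 members, r was -0.47 and rho -0.46, so that members of higher level lay lower in replicate 1. The relation to level was not computed over all names. In replicates 2, 3 and 4, r over the members was -0.09, 0.45 and 0.48 with level and 0.28, 0.30 and 0.25 with GC content. Each difference is measured from the other libraries, so the values of the replicates are linked. These values describe miRNAs of the same 4 libraries, which are not independent of each other. The part of GC content or of level in the low share of the cluster in replicate 1 was not tested.

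**Figure D5:**
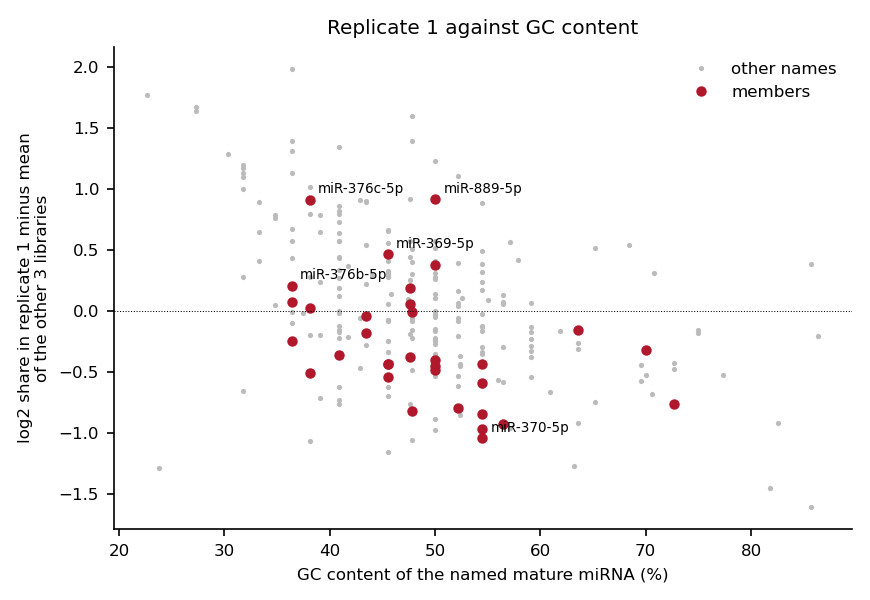
Log2 share in replicate 1 minus the mean of the other 3 libraries, against the GC content (%) of the named mature miRNA, for members (red) and other names (grey). The relation ran downwards in both sets, with r = -0.41 over 33 members and -0.46 over all 254 names, members included.

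The cluster was set beside the miR-17 to miR-92a-1 polycistron, which is known for promoting cell proliferation. Its names, matched by number and letter, held 1.91% ± 0.258 of the counts, above the cluster in 4 of 4 libraries (log2 ratio of the cluster to it -0.46 ± 0.157; exact two-sided sign-flip permutation test, p = 0.13), and without miR-134-5p the log2 ratio was -0.49. That sum counts miR-92a-2-5p and miR-19b-2-5p, whose hairpins lie outside the polycistron. Their counts were within 1.1-fold of those of miR-92a-1-5p and miR-19b-1-5p. Without these 2 names the cluster was the higher one in 4 of 4 libraries (log2 ratio 0.41, or 0.38 with miR-134-5p left out as well, p = 0.13 in each by the same exact test), so the order depends on how related names are counted.

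The large imprinted cluster on chromosome 19, typical of placenta, was far lower. Its 28 names summed to 0.00161% ± 0.000375 (SD, n = 4), and 2 of them had at least 10 counts in every library. Of miRNAs from other imprinted loci, miR-335-5p held 0.0195% ± 0.0104 and miR-296-5p 422, 412 and 512 counts in replicates 2 to 4 and a blank in replicate 1. Among miRNAs of 14q32 outside the imprinted cluster, miR-342-5p held 0.107% ± 0.00730, and its lowest and highest counts were 12635 and 15258.

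The few markers listed for other cell types were low or blank. For neurons, only 2 names were listed. miR-124-5p was blank, which need not mark a low level. miR-129-5p had 66.5 to 230.5 estimated counts, and its highest library was replicate 4. Other miRNAs of brain were not listed, so the level of neural miRNAs at large was not examined. The names typical of oligodendrocytes summed to 0.0003%, of blood cells to 0.000173%, of muscle to 0.000194% and of liver to 0.00222%. In a culture sequenced in bulk, fewer cells with a miRNA and less of it per cell cannot be told apart.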

How the data were processed

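miR-seq of 4 libraries of U-251 cells was analysed. The authors prepared libraries with a QIAseq miRNA kit, trimmed adaptors with Trimmomatic, discarded long reads, and used Bowtie on hg38 and miRDeep2 for mapping and counting. Their deposited values are estimated counts per name: they are not normalized, and 40 names have values that are not whole. Blanks (27 of 172 member cells, 1210 of 2984 in all) were read as 0.

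Python 3.11.15 with numpy 2.4.6, pandas 2.3.3 and scipy 1.17.1 gave the shares, coefficients of variation, Dixon's ratios and exact sign-flip permutation tests, and matplotlib 3.10.9 the plots. Steps across names were tested on simulated data. Rounded counts gave upper-quartile and TMM factors in edgeR 4.0.16 and size factors in DESeq2 1.42.0, as alternatives. Hairpins were placed by RefSeq and GENCODE on GRCh38, counting from 1. Wilson intervals cover counting error only. The sign-flip p-values take their smallest value, 0.125, whenever all 4 libraries agree in direction, whatever the spread between them.

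The members and lists were chosen with earlier results of these data known. Named are the 20 members with the highest summed counts among those with at least 10 counts in every library, the ends of the order, members sharing a seed with these and members for which 1 library stood apart. Any other member was picked with its values in view.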

Additional observations from a re-analysis of the deposited data

Results flagged for a closer look

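For miR-376c-5p, replicate 1 stood apart from the other 3 libraries, with a Dixon's ratio of 0.861, above the 95% critical value for 4 samples. It had 736 counts there and 369 to 418 in the others. For 4 members found in a single library, Dixon's ratio is 1 by construction, since the other 3 libraries were blank and read as 0: miR-134-5p (18453 counts) and miR-668-5p (9 counts) in replicate 3, and miR-495-5p (173 counts) and miR-656-5p (4 counts) in replicate 2. Beside those 4, 40 results were examined, namely 34 members with a value in every library and 6 sums or ratios. Chance flags about 1 in 20 such groups, or 2 of 40. No sum or ratio of the cluster stood apart, and the highest of their ratios was 0.757, for the MEG3 and RTL1 side in replicate 1.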

How the results depend on the processing

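Of 55 recalculations of the main results, 50 kept their direction and stayed within the limits set for a move. For the log2 ratios no limit on size was set. Their label could change only with the sign, because the other limit, 0.05 for the sign-flip p, cannot be reached with so few libraries. The log2 ratio of the cluster to the miR-17 to miR-92a-1 polycistron changed sign from -0.46 to 0.41 without miR-19b-2-5p and miR-92a-2-5p, and to 0.38 when miR-134-5p, or every name with a blank, was left out as well. Added after seeing the data were this alternative, leaving out miR-134-5p, the summed share over names with a value in every library, counting miR-376a once, the GC content of the 3p mature and hairpin, and the other scalings of the members lowest in replicate 1. Leaving out each replicate in turn gave 11 to 17 neighbouring pairs with the same direction and a median coefficient of variation of 13.6 to 22.5%, both at their extreme without replicate 1. The summed share was 1.29 to 1.54% in the same way, and 1.41% with each of the upper-quartile, TMM and DESeq2 factors. With those factors, replicate 1 was lowest for 23, 20 and 20 members (69.7, 60.6 and 60.6%, against 43.6, 34.6 and 34.3% of all names). None of the 99 rescaled member shares moved by more than its SD. All these factors lay between 0.928 and 1.08, so a mean share could move little beside its SD. The rescaled member shares and the rescaled summed share are therefore a weak check. Leaving out any of 4 values cannot move a mean by as much as its SD. The 132 member shares recalculated without a replicate therefore had to stay within it and are no check. The same holds for the summed share without a replicate, whose recalculations are among the 50. No paired analysis was possible because all 4 samples belong to the same group. Sign-flip tests over 4 values cannot go below 0.05.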
